A study of Homo sapiens with 3 samples.

Results

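The genes described here encode proteins of the cytosolic ribosome, factors that start translation and proteins that share their symbols. They were chosen by symbol: RPL or RPS followed by a number, or EIF followed by a number. All EIF genes are called initiation factors here, although they include kinases that act on eIF2, the exon-junction helicase EIF4A3 and EIF5A. The rule used no measured value. It selected 453 of 40702 exon-skipping events, in 110 of 10485 genes, in the table of the library coded RS2, and 462 of 42518 events, in 108 of 10683 genes, in the table of the library coded RS3. Together the tables covered 112 member genes and 393 distinct member exons.

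The cells were of the line BJ, fibroblasts established from human foreskin, harvested 8 days after virally delivered OCT4, SOX2, KLF4 and MYC (OSKM), the reprogramming factors that all 3 samples carried. The samples had received SMAD3 siRNA, SFRS11 siRNA or a non-targeting siRNA, with 1 library each. SMAD3 relays TGF-beta signals in the nucleus, and SFRS11 (SRSF11) is an arginine- and serine-rich splicing factor. The RS2 and RS3 libraries were each compared with the same other library, named the comparator here, and no label ties these codes to a siRNA. Every value is therefore a difference between 2 libraries, read as RS2 or RS3 minus the comparator, and no replicate measures its error. The tables hold no expression level, so neither the knockdowns nor the cell type could be checked by level. Of the marker lists, 11 of 12 fibroblast genes had listed events in each table, against 5 of 10 pluripotency genes in RS3 and 3 of 10 in RS2, and 4 of 7 epithelial genes in RS3 and 3 of 7 in RS2.

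Translation starts when the small ribosomal subunit, carrying eIF3 and the initiator tRNA held by eIF2, is brought to the capped end of an mRNA by eIF4F. In eIF4F, eIF4E binds the cap, eIF4G is the scaffold and eIF4A the helicase, and eIF4B and eIF4H assist the helicase. The subunit then scans to a start codon, where the large subunit joins, while eIF2B recharges eIF2 and stress kinases of the EIF2AK family block that recharging. Several of these genes also make splice forms that change the protein end or carry an early stop codon, and mRNAs with an early stop are typically destroyed by nonsense-mediated decay (NMD).

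The exons on which the results turn are shown first, as mRNA-sense sequence from GENCODE 29 transcripts (GRCh38). A listed exon was matched to a GENCODE exon by gene, by length and by its spacing from the gene's other listed exons, and the positions given are the hg19 positions of the deposited tables. None of the exons shown overlapped an exon of another GENCODE gene. The EIF4A2 exon (chr3:186506099-186506205, plus strand, 107 bases) was annotated in 1 transcript, of the NMD class, as exon 11 of 12, and only its coding bases and the early stop are printed. The EIF4G1 exon (chr3:184033551-184033644, plus strand, 94 bases) was in 13 transcripts, 12 of them protein-coding, and its 60 coding bases are printed with the start codon in capitals. The EIF4H exon (chr7:73604577-73604636, plus strand, 60 bases) was exon 5 of 7 and wholly coding. It carries the difference between the long and short eIF4H proteins. The paired RPS24 exons share their downstream end (chr10:79799962-79799983 for 22 bases and chr10:79799959-79799983 for 25 bases, plus strand). The stop codon is the opening codon of the 22-base form and follows 3 further coding bases in the 25-base form, so that inclusion sets the last residues of the protein. The RPL10 exon (chrX:153628805-153628967, plus strand, 163 bases) and the EIF3K exon (chr19:39123241-39123318, plus strand, 78 bases) were wholly coding. The RPS9 exon (chr19:54710421-54710592, plus strand, 172 bases) was annotated only in 2 NMD transcripts, and its coding bases and early stop are printed. Stop and start codons are in capitals in the sequences.
EIF4A2, 107-base exon, coding part and stop: gagtcgaTAG
RPS9, 172-base exon, coding part and stop: ccctcggaggTGA
RPS24, 25-base exon, coding part and stop: cagTGA
EIF4G1, 94-base exon, coding part: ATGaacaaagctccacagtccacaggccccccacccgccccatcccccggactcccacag
EIF4H, 60-base exon: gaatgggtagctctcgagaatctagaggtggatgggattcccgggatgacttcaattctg
EIF3K, 78-base exon: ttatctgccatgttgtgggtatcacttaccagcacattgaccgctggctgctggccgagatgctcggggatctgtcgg
RPL10, 163-base exon: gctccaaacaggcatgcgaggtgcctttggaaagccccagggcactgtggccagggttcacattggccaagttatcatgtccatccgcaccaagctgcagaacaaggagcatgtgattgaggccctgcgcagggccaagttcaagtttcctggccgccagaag

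Few events differed from the comparator by both size and deposited test, among the members as among all genes. Called events are those with a false discovery rate (FDR) under 0.05 and an absolute difference in inclusion level of at least 0.1, both read from the authors' deposited table. The inclusion level is the share of transcripts over the region that keep the exon, so the difference runs from -1 to 1. In RS2, 0 of 453 member events were called, where 0.0712% of all events were (29 of 40702), 0.027% higher and 0.0442% lower. In that table, 11 member events had a deposited p-value under 0.05 without adjustment, which is 2.43% of them, against 4.52% of all events. In RS3, 3 of 462 member events were called, which is 0.649%, against 0.967% of all events (411 of 42518). Of these 3 events, 2 were higher in RS3, where 0.23% of all events were called higher, and 1 was lower, where 0.736% of all events were called lower. All 3 belonged to eIF4F genes: EIF4A2, an eIF4A helicase, had 2 and EIF4G1, the main scaffold, had 1. The ribosomal proteins had 0 called events in either table, with 7 of 230 in RS2 and 13 of 232 in RS3 at a deposited p-value under 0.05. For event numbers of this size, the called counts of the members and of the ribosomal proteins are near the share over all events. Deposited p-values and FDR compare 2 libraries, not conditions, and the read depth behind them is unknown.

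By FDR alone, 1 of 453 member events was under 0.05 in RS2 (0.165% of all events), and 10 of 462 were in RS3 (1.64% of all events). In RS3 these were 5 events of ribosomal proteins (2.16% of theirs) and 5 of initiation factors (2.17% of theirs). All 5 of the ribosomal proteins and 2 of the initiation factors had differences smaller than 0.1 in RS3.

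**Figure D1:**
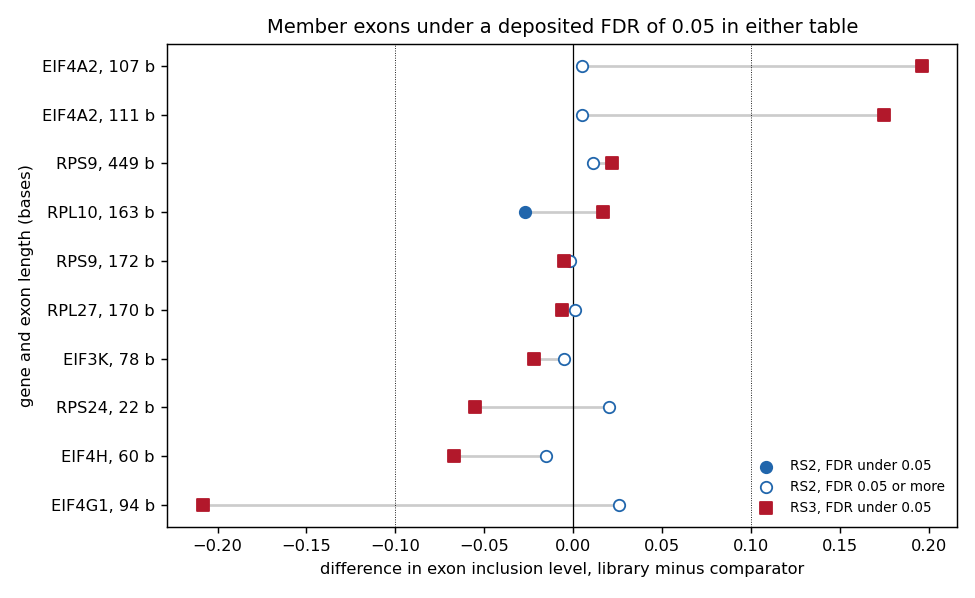
Member exons with a deposited FDR under 0.05 in either table. The horizontal axis is the difference in exon inclusion level, RS2 or RS3 minus the comparator, from the row with the smallest p-value. Each line of the vertical axis is a gene and an exon length in bases, and filled symbols mark an FDR under 0.05. The 2 EIF4A2 exons lie at 0.196 and 0.175 in RS3 and near 0 in RS2, EIF4G1 lies at -0.208 in RS3, and RPL10 is filled on both sides of 0.

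Most member differences were very small. In RS2, 11 of 230 ribosomal protein events (4.78%) and 16 of 223 initiation factor events (7.17%) had an absolute difference of at least 0.1, where 19.2% of all events did. In RS3, 6 of 232 ribosomal protein events (2.59%) and 23 of 230 initiation factor events (10.0%) did, where 21.2% of all events did. The eIF2 kinases gave 4 of these 16 initiation factor events in RS2 and 6 of the 23 in RS3. The difference was listed as exactly 0 in 134 ribosomal protein events in RS2 (58.3%) and 118 in RS3 (50.9%). Initiation factors had a difference of 0 in 7.62% of events in RS2 and 8.26% in RS3, and all other genes in 3.90% and 3.41%. The fibroblast marker genes had a difference of 0 in 54.0% of their events in RS2 and 59.6% in RS3. The 6 ribosomal protein genes outside the symbol pattern had one in 60.6% in RS2 and 54.8% in RS3. The median absolute difference was 0 for ribosomal proteins in both tables. For initiation factors it was 0.005 in RS2 and 0.006 in RS3, and for all other genes 0.018 in RS2 and 0.020 in RS3. The deposited p-value was listed as 1 for 82.2% of ribosomal protein events, 51.1% of initiation factor events and 25.9% of other events in RS2. In RS3 these shares were 82.3%, 44.8% and 25.2%, in the same order. Counted by gene, 27 of 68 ribosomal protein genes in RS2 and 23 of 65 in RS3 had a difference of 0 in every listed event. Among the initiation factor genes, 1 of 42 in RS2 and 0 of 43 in RS3 did. Many ribosomal protein genes have processed pseudogene copies elsewhere in the genome, and the sources used here do not say how reads from such copies were assigned. Their part in these values was not tested.

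The mitochondrial ribosomal proteins, encoded by other genes, and the DEAD and DEAH box helicases, the family of eIF4A, were set beside the members as descriptions. Of the mitochondrial ribosomal protein events, 15.8% in RS2 and 20.2% in RS3 had an absolute difference of at least 0.1. Of the helicase events, 12.3% in RS2 and 8.64% in RS3 did. The median absolute difference was 0.011 in RS2 and 0.0145 in RS3 for mitochondrial ribosomal proteins, and 0.0095 and 0.0115 for helicases. In RS3, 3 mitochondrial ribosomal protein events in 1 gene and 2 helicase events were called, which is 1.60% of 188 and 1.23% of 162 events, against 0.967% of all events. In RS2, 0 of 184 and 0 of 162 were called, against 0.0712% of all events, with 7 and 6 events at a p-value under 0.05. Low shares were not particular to the members. Of the ribosome biogenesis events, 4.17% in RS2 and 1.39% in RS3 had a difference of at least 0.1, and of the fibroblast marker events 2.30% in RS2 and 2.88% in RS3 did.

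**Figure D2:**
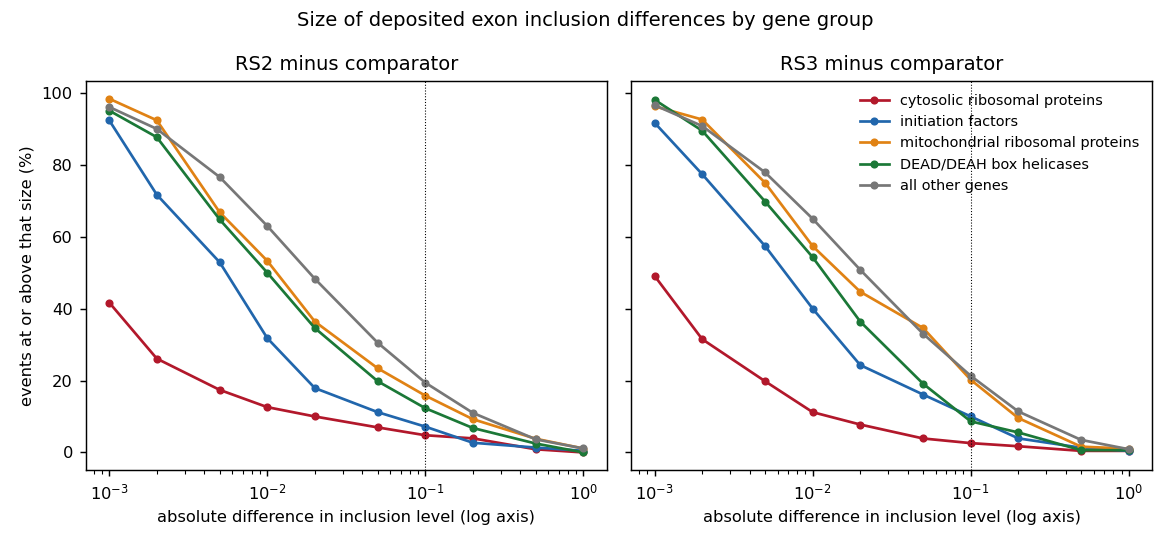
Percent of events (vertical axis) whose absolute difference in inclusion level reached the size on the horizontal axis (log scale), for RS2 on the left and RS3 on the right. The curve of the cytosolic ribosomal proteins is the lowest from 0.001 to 0.1. The dotted line marks 0.1, where it stands at 4.78% in RS2 and 2.59% in RS3, against 19.4% and 21.3% for all other genes.

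The members called in RS3 were read exon by exon. EIF4A2 encodes an eIF4A helicase, and its 107-base exon carries an early stop after 7 coding bases. In the authors' deposited table, inclusion of that exon was 0.196 higher in RS3 than in the comparator, with an FDR of 0.00052. For RS2 the authors' deposited table gave the same exon a difference of 0.005 and an FDR of 1. A form of the exon that shares its start and is 4 bases longer, 111 bases in all, differed by 0.175 in RS3 (FDR of 0.00145) and by 0.005 in RS2 (FDR of 1) in the authors' deposited table. These 2 events overlap almost wholly and are not separate observations. Neither exon was in a protein-coding GENCODE transcript. The other EIF4A2 exons did not pass the test. A 106-base exon had 2 rows in each table, and the authors' deposited table gave -0.019 and 0.652 in RS3 and -0.303 and -0.006 in RS2, with FDRs of at least 0.909. The coding exons of 140, 169, 90 and 80 bases lay between -0.008 and 0.018 in both of the authors' deposited tables.

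EIF4G1, the main scaffold of eIF4F, had 28 events in RS3 and 26 in RS2, the most of any member. Its 94-base exon holds a start codon of annotated protein forms. It appeared in 5 RS3 rows, which the tables do not tell apart because they list no flanking exons. In the authors' deposited table, 1 of these rows gave -0.208 (FDR of 0.0431), and the other 4 lay between -0.006 and 0.001. The 6 RS2 rows of this exon lay between -0.008 and 0.134 in the authors' deposited table, all with an FDR of 1. The call thus rests on 1 row, and the same exon was close to 0 in most of its rows. A wholly coding EIF4G1 exon of 100 bases gave -0.573, -0.257 and 0.001 in RS3 in the authors' deposited table, and the FDR of its largest difference was 0.107. Its only RS2 row gave 0.001 in the authors' deposited table. Another wholly coding EIF4G1 exon, of 87 bases, differed in sign among its rows, and none was called. The authors' deposited table gave it 7 rows between -0.154 and 0.121 in RS3 and 6 rows between -0.121 and 0.071 in RS2. The listed exons further along the gene, of 113, 105, 103 and 99 bases, lay between -0.001 and 0.001 wherever the authors' deposited tables listed them. The 113-base exon was listed only in RS3 and the 103-base exon only in RS2.

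**Figure D3:**
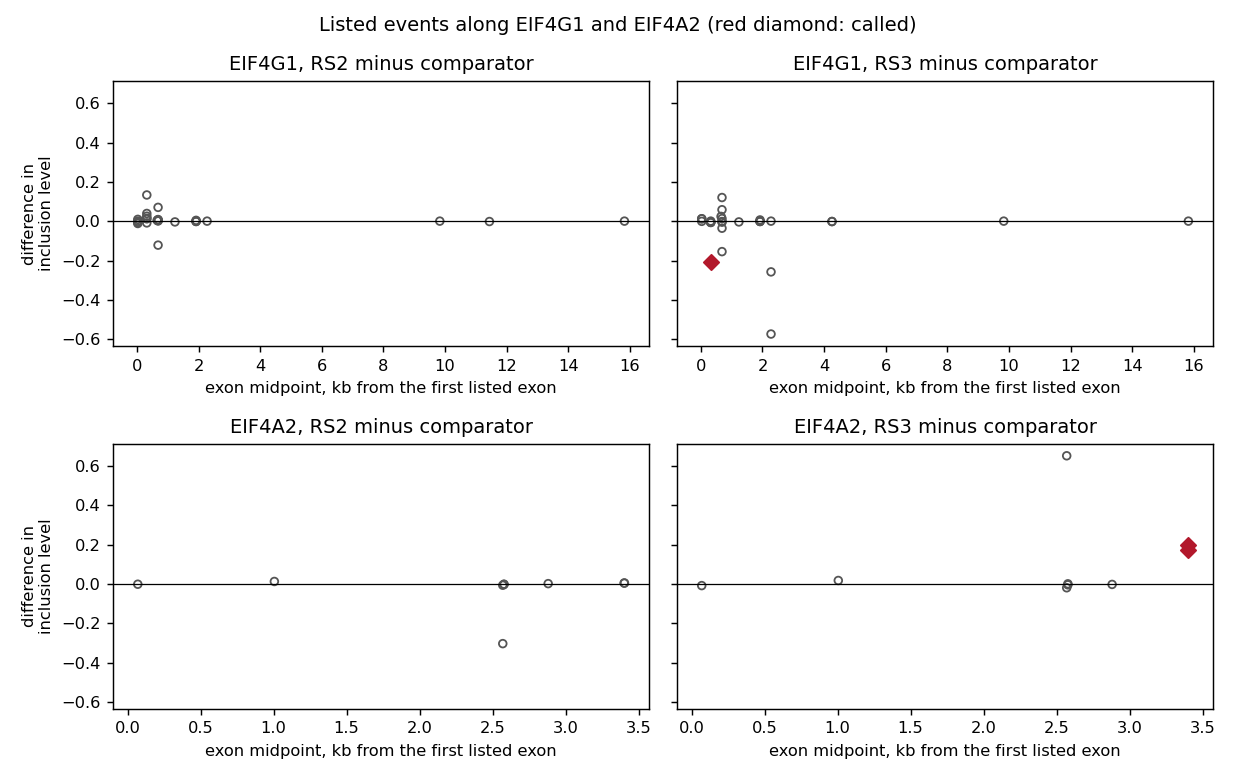
Differences in inclusion level (vertical axis) of every listed event of EIF4G1 (top) and EIF4A2 (bottom), against the distance of the exon midpoint from the gene's first listed exon in kb (horizontal axis), for RS2 on the left and RS3 on the right. Red diamonds are called events: 1 in EIF4G1 at -0.208 and 2 in EIF4A2 at 0.196 and 0.175, all in RS3. Differences of at least 0.1 in EIF4G1 lie near the start of the gene.

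The other scaffolds gave no call. EIF4G3, a related scaffold, had a coding exon of 111 bases at -0.104 in RS2, with an FDR of 0.399, and at -0.019 in RS3 in the authors' deposited table. Another coding exon of EIF4G3, of 147 bases, lay at -0.125 in RS3 (FDR of 0.579) and at 0.018 in RS2 in the authors' deposited table. EIF4G2 encodes an eIF4G relative that lacks the eIF4E-binding region and takes part in cap-independent initiation. All listed EIF4G2 events lay between -0.008 and 0.011 in both of the authors' deposited tables.

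The eIF4H exon of 60 bases passed the FDR but not the size threshold. The authors' deposited table gave -0.067 in RS3, with an FDR listed as 0, and -0.015 in RS2, at a p-value of 0.0539 and an FDR of 1. The other listed EIF4H exon, of 188 bases, stood at 0.002 in RS3 and at 0 in RS2 in the authors' deposited table. Both values for the 60-base exon were negative, but the tables share the comparator, so the agreement of sign is not independent.

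Among the other initiation factors, sizes of at least 0.1 without a call were spread over eIF3, eIF2B and the eIF2 kinases. EIF3H, a subunit of eIF3, had a coding exon of 150 bases with 4 rows in each table. By the row with the smallest p-value, the authors' deposited table gave -0.348 in RS3 (FDR of 0.332) and -0.5 in RS2 (FDR of 1), while another RS2 row gave 0.333. EIF3K, another eIF3 subunit, was chosen after its values were seen: its 78-base coding exon lay at -0.022 in RS3 (FDR of 0.00403) and at -0.005 in RS2 (FDR of 1) in the authors' deposited table. EIF2B5 encodes the catalytic subunit of eIF2B, and its 81-base coding exon had 2 rows in each table. Of these, 1 row was listed at -1 in both of the authors' deposited tables, with an FDR of 0.71 in RS3 and 1 in RS2. The other row was listed at 0.013 in both. A 198-base EIF2B5 exon in no protein-coding transcript, named after its values were seen, lay at 0.519 in RS2 and 0.006 in RS3 in the authors' deposited table. EIF2B3, another eIF2B subunit, had a 67-base exon outside protein-coding transcripts at 0.107 in RS3 and 0.193 in RS2 in the authors' deposited table, each with an FDR of 1. None of these differences of at least 0.1 had an FDR under 0.05.

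The eIF2 kinases had the highest share of events of at least 0.1 among the role groups: 6 of 14 in RS3 and 4 of 10 in RS2, none of them called. The kinases differed among themselves: all 4 RS2 events of at least 0.1, and 3 of the 6 in RS3, were of EIF2AK2. EIF2AK2 encodes PKR, the kinase that senses double-stranded RNA. Its 4 listed exons were untranslated and shared 1 edge, so they overlap and are not separate observations. In the authors' deposited table the exons of 59, 83, 167 and 401 bases gave -0.174, -0.133, -0.069 and -0.117 in RS3. The same exons gave 0.14, 0.113, 0.121 and 0.213 in RS2 in the authors' deposited table. All 4 were lower than the comparator in RS3 and higher in RS2, with FDRs of at least 0.926. EIF2AK4 encodes GCN2, which senses amino acid shortage, and its 171-base coding exon lay at -0.229 in RS3 (FDR of 0.451) and -0.035 in RS2 in the authors' deposited table. No event of the group of eIF1, eIF2 and eIF5 reached 0.1 in either table, among 20 events in RS3 and 17 in RS2. The exon-junction helicase EIF4A3 had 1 event in each table, at -0.002 in both of the authors' deposited tables.

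In RS3, 18 of the 23 initiation factor events of at least 0.1 were lower than the comparator (78.3%), while over all events 5231 of 8996 were lower. In RS2, 8 of 16 were lower (50.0%), and 3874 of 7834 over all events. The RS3 events came from 13 genes and the RS2 events from 8. EIF4G1 and EIF2AK2 gave 8 of the 23 in RS3 and 6 of the 16 in RS2, so the events are not independent. Neither set of events was tested as a set.

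**Figure D4:**
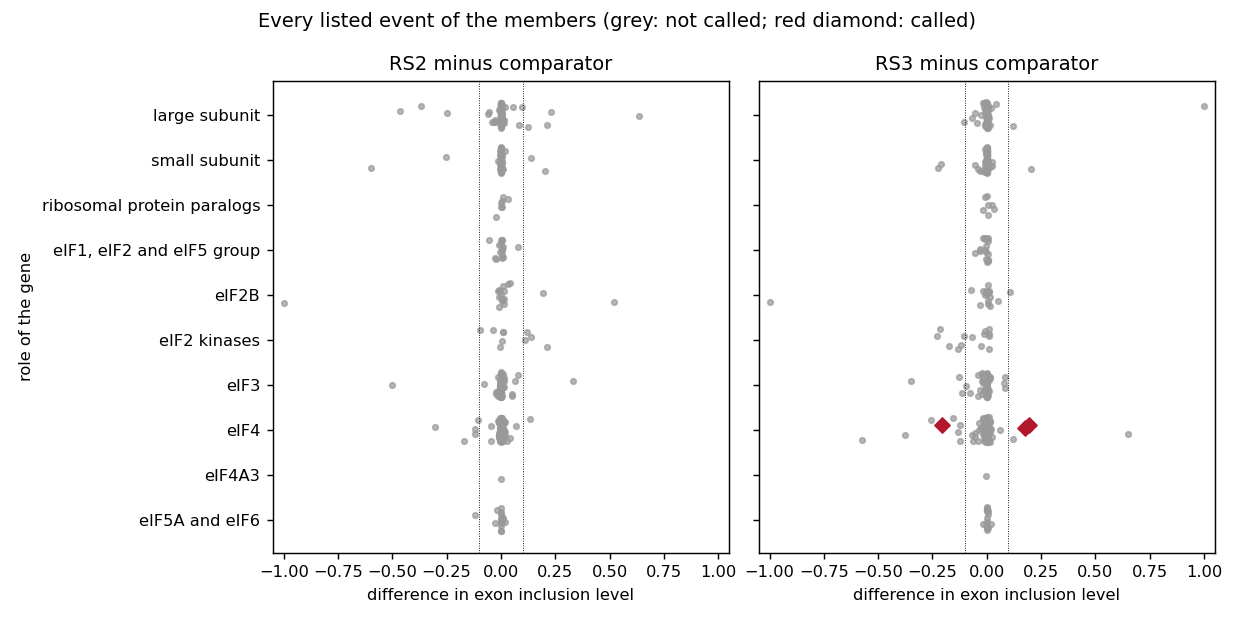
Each point is 1 listed event of a member gene, placed by its difference in inclusion level (horizontal axis) and by the role of the gene (vertical axis), for RS2 on the left and RS3 on the right. Dotted lines mark differences of -0.1 and 0.1, and red diamonds are the 3 called events, all in eIF4 genes in RS3. Points of the ribosomal subunits crowd at 0, and the 4 EIF2AK2 points among the eIF2 kinases are above 0 in RS2 and below 0 in RS3.

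Proteins of the large subunit had 7 of 126 events of at least 0.1 in RS2 (5.56%) and 3 of 126 in RS3 (2.38%). Their differences ran from -0.466 to 0.635 in RS2 and from -0.103 to 1 in RS3. RPL10 sits near the site where the tRNAs bind, and its gene had the only member exon under an FDR of 0.05 in both tables. In the authors' deposited table its 163-base coding exon lay at 0.017 in RS3 and at -0.027 in RS2, each with an FDR listed as 0. RPL10 was chosen after these values were seen. RPL27 was chosen the same way: the authors' deposited table gave -0.006 for its 170-base coding exon in RS3, with an FDR of 0.00437. The FDR of such small differences passed the threshold where the much larger ones of EIF2B5 and EIF3H did not. An unmatched exon of 773 bases under the RPL26 symbol lay at 0.121 in RS3 (FDR of 0.655) and 0.013 in RS2 in the authors' deposited table. That symbol has 2 gene identifiers, so the exon was not shown to belong to the ribosomal protein gene.

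Large-subunit genes known for regulated splicing had no call. RPL3, which makes an alternatively spliced NMD form, differed by at most 0.003 over its 2 listed exons in both of the authors' deposited tables. RPL12, also known for such a form, lay between -0.001 and 0 in both of the authors' deposited tables. Only exon skipping was read, and the listed exons of both genes were wholly coding, so these NMD forms were not themselves measured. RPL10A varied more in RS2, where 1 row of its 81-base coding exon gave 0.635 and another of a 339-base exon gave 0.212, both with an FDR of 1 in the authors' deposited table. The RS3 rows of RPL10A lay between -0.045 and 0.001 in the authors' deposited table. RPL22L1, the paralog of RPL22, had a coding exon at 0.004 in both tables and a longer form of it at 0.033 in RS3 and 0.031 in RS2 in the authors' deposited table, all with an FDR of 1.

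Proteins of the small subunit had 3 of 99 events of at least 0.1 in RS3 (3.03%) and 4 of 97 in RS2 (4.12%). Their differences ran from -0.225 to 0.205 in RS3 and from -0.6 to 0.205 in RS2. RPS24, whose mRNA ends differ by very short exons, had 1 event under the FDR threshold. In the authors' deposited table its 22-base exon lay at -0.055 in RS3, with an FDR of 0.000696, and at 0.020 in RS2, with an FDR of 1. The 25-base form lay at -0.017 in RS3 (FDR of 0.144) and at -0.015 in RS2 (FDR of 0.857) in the authors' deposited table. A 245-base RPS24 exon outside protein-coding transcripts lay at 0.205 in RS3 and 0.137 in RS2 in the authors' deposited table, each with an FDR of 1. These RPS24 values were all on the same side in both tables except for the 22-base exon.

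RPS9, another small-subunit protein, was named after its values were seen. Its 172-base exon with the early stop lay at -0.005 in RS3 (FDR of 0.00414) and at -0.002 in RS2 (FDR of 1) in the authors' deposited table. A 449-base exon that ends at the same base lay at 0.022 in RS3 (FDR of 0.0422) and 0.011 in RS2 (FDR of 0.422) in the authors' deposited table. RPS3, a protein at the mRNA entry channel, had a 94-base coding exon at -0.21 in RS3 (FDR of 0.888) and -0.251 in RS2 (FDR of 1) in the authors' deposited table. The other listed RPS3 exons lay between -0.003 and 0.001 in both of the authors' deposited tables. RPS19, the protein most often mutated in Diamond-Blackfan anaemia, had a 115-base exon outside protein-coding transcripts at -0.225 in RS3 (FDR of 0.97) and 0.205 in RS2 (FDR of 1) in the authors' deposited table. That exon also had a row at 0 in each table. A 726-base RPS19 exon, named after its values were seen, had rows of 0.022 and 0 in RS3 and of -0.6 and 0 in RS2 in the authors' deposited table, all with an FDR of 1.

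The rest of the members with sizes of at least 0.1, or with the smallest FDRs outside the threshold, were listed after their values were seen. RPS3A, a small-subunit protein, had overlapping exons of 102 and 110 bases at -0.041 (FDR of 0.0606) and -0.029 (FDR of 0.0915) in RS3, and at -0.005 and -0.004 in RS2, in the authors' deposited table. Single-row exons of the large-subunit genes RPL17, RPL18, RPL36 and RPL13A lay at 0.229, -0.37, -0.466 and 0.126 in RS2 in the authors' deposited table, each with an FDR of 1. The RPL17 and RPL13A exons lay at 0.019 and 0.002 in RS3 in the authors' deposited table, while the RPL18 and RPL36 exons were not listed there. An RPL22 exon of 262 bases lay at -0.103 in RS3 and -0.249 in RS2, and an exon of 93 bases under the RPL26 symbol was listed at 1 in RS3, with FDRs of at least 0.969, in the authors' deposited table. Among initiation factors, exons of EIF4A1, EIF4E2, EIF3J, EIF3L and EIF2AK1 had an RS3 difference of -0.375, -0.124, -0.128, -0.112 and -0.106 in the authors' deposited table, with FDRs of at least 0.829. The EIF3L exon, of 62 bases, also had an RS3 row at -0.011 in the authors' deposited table. A 45-base coding exon of EIF2AK4 lay at -0.215 in RS3 and -0.098 in RS2 in the authors' deposited table and was not called. EIF5A2, a relative of the elongation-promoting factor eIF5A, had a 158-base exon at -0.119 in RS2 (FDR of 1) in the authors' deposited table. In all, 9 ribosomal protein genes in RS2 and 5 in RS3 had an event of at least 0.1, and 8 initiation factor genes in RS2 and 13 in RS3 did. Every listed event was smaller than 0.01 in 49 of 68 ribosomal protein genes in RS2 and 48 of 65 in RS3, and in 15 initiation factor genes in each table. RPL4, RPS20, RPS27A and EIF5A2 were listed only in RS2, and EIF2AK3 and EIF3J only in RS3.

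Of the 393 member exons, 358 (91.1%) were matched to GENCODE. Of the matched exons, 232 were wholly coding in a protein-coding transcript, 37 partly coding, 20 untranslated and 69 in no protein-coding transcript. Stop codons were not counted as coding, so the untranslated exons include the 22-base RPS24 exon, which opens with the stop codon. By the row with the smallest p-value, 11 of 212 wholly coding exons in RS3 (5.19%) and 8 of 206 in RS2 (3.88%) had an absolute difference of at least 0.1. Of the exons in no protein-coding transcript, 6 of 65 in RS3 (9.23%) and 8 of 64 in RS2 (12.5%) did. Of the untranslated exons, 4 of 19 in RS3 (21.1%) and 6 of 19 in RS2 (31.6%) did, and EIF2AK2 gave 3 and 4 of these. The 3 called events lay in 2 exons found in no protein-coding transcript and 1 partly coding exon. Exon length was a multiple of 3 in 33.9% of ribosomal protein events, 44.4% of initiation factor events and 41.1% of all events in RS2. In RS3 the shares were 34.1%, 43.9% and 41.2%, in the same order. Such a length does not by itself show that the reading frame is kept. Of the member exons with such a length, 22 were in no protein-coding transcript and 4 were untranslated.

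**Figure D5:**
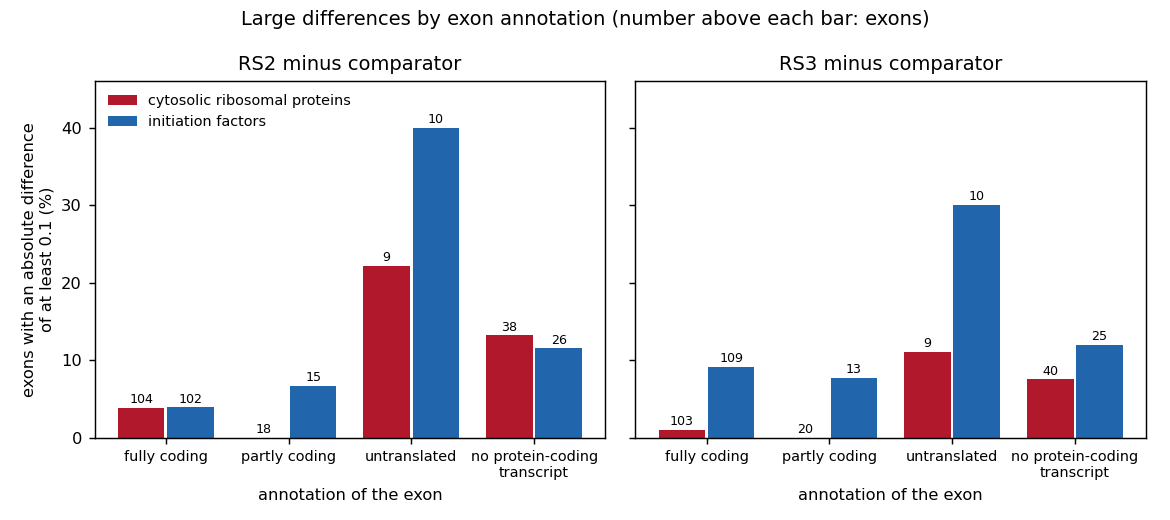
Percent of member exons with an absolute difference of at least 0.1 (vertical axis) by the annotation of the exon (horizontal axis), for ribosomal proteins and initiation factors, RS2 on the left and RS3 on the right. Numbers above the bars are exons, and exons of 1 gene are not independent. The highest bars are the untranslated exons of initiation factors, with 10 exons in each table.

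Of the 323 member exons listed in both tables, 274 (84.8%) differed from the comparator by less than 0.05 in each. Those of ribosomal proteins did so for 157 of 172 (91.3%) and those of initiation factors for 117 of 151 (77.5%). An absolute difference of at least 0.1 in both tables was seen in 6 exons on the same side and 4 on opposite sides, and the tables share the comparator. Those on opposite sides were the overlapping EIF2AK2 exons of 59, 83 and 401 bases and the RPS19 exon of 115 bases. Each exon was read by its row of smallest p-value. Other rows of the EIF2B5, EIF3H and RPS19 exons lay near 0 or on the other side.

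Other genes of translation were read from lists chosen by function. No gene of the elongation and termination list (12 of 13 listed with events in each table), the growth signalling list (12 of 12), the list of cap and poly(A) regulators (13 of 16 in RS3 and 12 of 16 in RS2) or the ribosome biogenesis list (26 of 30 in RS3 and 25 of 30 in RS2) had a called event in either table. These lists had 69 to 75 events each in RS2 and 72 to 82 in RS3, so at the 0.0712% and 0.967% of all events that were called, a count of 0 is near the background. The ribosomal proteins outside the symbol pattern, 6 of 7 of which were listed, had 0 called of 31 events in RS3 and 0 of 33 in RS2. By FDR alone, 12.9% of them in RS3 and 9.09% in RS2 were under 0.05, against 1.64% and 0.165% of all events. Among the genes of NMD, which include the member EIF4A3, 14 of 16 were listed in RS3 and 15 of 16 in RS2. Of their events, 0 of 63 were called in RS2, and 2 of 61 in RS3 (3.28%, against 0.967% of all events). Both were lower in RS3 and lay in 1 gene. That gene was UPF3A, an NMD factor that binds the exon junction complex. In the authors' deposited table its 107-base exon had RS3 rows of -0.175 (FDR of 0.00907), 0.037 and -0.009, and its RS2 rows lay between -0.048 and 0.038. Its 99-base exon had RS3 rows of -0.305 (FDR of 0.0215) and 0.041 and RS2 rows of 0.205 (FDR of 0.166) and -0.031 in the authors' deposited table. Each UPF3A call thus rests on 1 of several rows of its exon. Among the marker lists, the matrix genes FN1 (called lower in both tables) and COL6A3 (called lower in RS3) had called events. These were 2 of 104 fibroblast marker events in RS3 (1.92%) and 1 of 87 in RS2 (1.15%). The called COL6A3 exon, of 264 bases, lay at -0.102 in RS3, and another RS3 row of it at -0.008, in the authors' deposited table. None of 20 pluripotency and 13 epithelial events in RS3, or of 16 and 11 in RS2, was called, which is near the share over all events (0.967% in RS3 and 0.0712% in RS2).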

How the data were processed

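Exon skipping was compared between 3 libraries, 1 for each of 3 groups, by the authors. The submitters' processing notes name hg19, STAR and FastQC without versions, and no source used here names the splicing program. Per the file headers, each of the 2 deposited tables gives a p-value and an FDR for each event, and the deposited difference in inclusion level, a score between -1 and 1. The 4 columns of inclusion level per library entered no computed value, because no label ties the library codes to a sample. They were read by eye in the opening rows to settle the sign, on which every direction given here rests: there the first level minus the second gives the difference, and the second was taken as the comparator's.

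Members were found by symbol, and 2 symbols, RPL26 and EIF3L, had 2 gene identifiers each. No test was run here: the deposited p-values were read over the whole table, and a Benjamini-Hochberg adjustment of them moved 0 events across an FDR of 0.05. The counting code was run on simulated tables. There the planted events passed the thresholds by construction and no other event could, so the run checks only the code. An exon was defined by its gene, strand and both ends. Where an exon had several rows, the row of smallest p-value stood for it. Coordinates count from 1. A gene on the Y chromosome was counted with the members but not described. Read depth is unknown, so single differences have no interval.

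Named were every member with a called event, and per table and direction up to 8 uncalled exons with a deposited p-value under 0.05 and an absolute difference of at least 0.1. Also named were 11 genes known for alternative splicing, and up to 5 exons with a difference of at least 0.1 on the same side, or on opposite sides, in both tables. The members and lists were chosen with earlier results of these data known. Python 3.11.15, pandas 2.3.3, SciPy 1.17.1 and matplotlib 3.10.9 were used.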

Additional observations from a re-analysis of the deposited data

Results flagged for a closer look

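Several member exons lay on opposite sides of the comparator in the 2 tables. The 163-base coding exon of RPL10 was higher in RS3, at 0.017, and lower in RS2, at -0.027, in the authors' deposited table, each with an FDR listed as 0. The untranslated EIF2AK2 exons of 59, 83 and 401 bases lay at -0.174, -0.133 and -0.117 in RS3 and at 0.14, 0.113 and 0.213 in RS2 in the authors' deposited table. The 115-base RPS19 exon lay at -0.225 in RS3 and at 0.205 in RS2 in the authors' deposited table. None of the EIF2AK2 and RPS19 differences was called. The difference between RS3 and RS2 was not tested for any of these exons, no group has a replicate, and both tables share the comparator library.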

How the results depend on the processing

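Of 70 recomputed values, 63 stayed inside the 95% binomial interval of a share or median, or close to the count, and no median difference changed sign. That interval treats every event as independent, which rows of the same exon and overlapping exons are not, so it does not measure the spread of these shares. Some of the 63 could not move, because a stricter threshold or a subset of a count of 0 again gives 0. With an FDR under 0.01 and an absolute difference of at least 0.2, the called member events in RS3 fell to 0, and so did those of initiation factors. With a size threshold of 0.05 in the call, RS3 had 5 called member events, 1 of them in a ribosomal protein. The share of initiation factor events at or above the size threshold was 2.69% in RS2 and 3.91% in RS3 at a threshold of 0.2, and 16.1% in RS3 at 0.05. At 0.2 the RS2 share of ribosomal protein events was 3.91%, so the order of both groups turned in RS2, from 4.78% against 7.17% at 0.1. Among ribosomal protein events of at least 0.1 in RS2, 45.5% of 11 were lower, and 57.1% of 7 in exons with a single row. These thresholds set the counts by construction. RS2 had 0 called member events under all 6 alternatives. Stricter thresholds, 1 row per exon and core subunits only could return nothing but 0 there, and the Benjamini-Hochberg adjustment moved 0 events. Only the looser FDR and the smaller size threshold could have added a call. Without EIF4G1 and EIF4G3, left out after seeing the data because they have the most rows, the share of initiation factor events of at least 0.1 was 6.36% in RS2 and 8.94% in RS3. No paired analysis was possible because each group has 1 library. No replicate could be left out for the same reason.

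The limits are the lack of replicates, the unknown depth, the codes that no label ties to a siRNA, and rows of 1 exon that cannot be told apart or matched between tables because no flanking exon is listed.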
